A study of Mus musculus with 12 samples.

Results

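The 37 genes described here mark macrophages and the presentation of antigen, and were followed through mouse mammary organoids treated with increasing doses of CHIR99021. They were taken by name from the deposited count table of 25210 genes. Of them 36 were listed under the symbol given and Adgre1, the F4/80 antigen, under the older symbol Emr1. The organoids were primary mammary epithelial cultures from virgin female FVB/N mice of 8 to 11 weeks, grown in growth-factor reduced Matrigel and a minimal medium. No group carried a transgene or an engineered allele per the labels. Each of 3 animals gave 1 culture, and each culture was split over 4 treatments of 7 days: the vehicle dimethyl sulfoxide (DMSO), or CHIR99021 at 1, 1.5 or 3 µM. The compound inhibits GSK3, which keeps β-catenin low in resting cells, and thereby turns on WNT target genes. The 12 libraries give 3 per group, and values below are listed in the order of cultures 1, 2 and 3.

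Macrophages are resident phagocytes of the mammary gland, where they line the ducts and take part in duct growth and in the clearing of dying cells. They depend on the CSF1 receptor and on the transcription factor PU.1, and they carry Fc receptors, scavenger receptors, complement C1q and lysosomal proteases. Antigen presentation to CD4 T cells uses class II molecules, whose genes are switched on by the transactivator CIITA and whose assembly uses the invariant chain CD74 and the protease cathepsin S. Dendritic cells and B cells also carry the class II genes, and many of the leukocyte genes here are shared with other myeloid cells. The labels name no step that removed leukocytes from the cultures. In bulk RNA, fewer cells of a type and less RNA per cell cannot be told apart.

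Library totals ran from 10129264 to 24485855 counts. Levels are given as CPM, a gene's count scaled to a common library size, after TMM scaling, which corrects library sizes for differences in RNA composition. The epithelial markers were present at high level: the sum of 8 epithelial genes was 3611 to 6181 CPM in DMSO and 16921 to 33755 CPM at 3 µM. Krt14 and Krt5, keratins of basal cells, made up most of that sum at 3 µM. The 37 genes together took 0.0556, 0.21 and 0.411% of all counts in DMSO and 0.0106, 0.0195 and 0.0265% at 3 µM. Of the 37, 35 passed the filter on low counts and were tested, and H2-Aa and H2-Eb1, the class II α and β chains, did not pass.

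Most of the macrophage genes fell with the dose, and class II H2-Ab1 rose. At 3 µM, 25 of the 35 tested members were lower than in DMSO and 1 was higher (adjusted p below 0.05 in edgeR's quasi-likelihood test), where 27.7% of all 15316 tested genes were lower and 29.9% higher. The median log2 fold change of the tested members was −3.66, against −0.03 for all tested genes. Of the 35, 24 had all 3 libraries at 3 µM below all 3 of DMSO, which 29.9% of tested genes also did, and 30 were lower than their own culture's DMSO in 3 of 3 cultures, against 39% of tested genes. At 1 µM 0 members passed, 0 had an unadjusted p below 0.05 and DESeq2 also called 0, with 0.0522% of all genes called lower. At 1.5 µM Tyrobp and Trem2 passed as lower (11.8% of all genes) and H2-Ab1 as higher (15.4%). The median over the tested members was −1.80, and by role it ran from −0.65 in the class II genes to −2.0 in the Fc receptors and adaptors. From 1.5 to 3 µM, 5 members fell (12.7% of all genes): C1qa, C1qb, C1qc, Trem2 and Tlr2. The slope over dose was negative and past the threshold for 25 members (28% of all genes) and positive for H2-Ab1 (30.2%).

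Because each culture received every treatment, the comparison was also made with the culture as a block. Then 2 members were lower at 1 µM (3.06% of all genes), Csf1r with a log2 fold change of −0.44 ± 0.0942 (SE, adjusted p = 0.034) and Fcgr2b with −0.90 ± 0.162 (SE, adjusted p = 0.0205). Leaving out any 1 of the 1 µM libraries, or DMSO replicate 1 or 2, left 0 blocked calls at 1 µM. At 1.5 µM the blocked model called 26 members lower (24.3% of all genes) and 1 higher (22.3%), at 3 µM 30 lower (34.8%) and 1 higher (34.1%), and from 1.5 to 3 µM 24 lower (22%). Blocked fits without 1 library called 25 to 28 members at 1.5 µM and 23 to 25 from 1.5 to 3 µM. The blocked slope was negative and past the threshold for 30 members (32.3% of all genes) and positive for H2-Ab1 (32.2%). Members called only with the block at 3 µM were Cd53, Cd68, Cx3cr1, Cd163 and Fcgr2b. All DMSO comparisons share the same 3 DMSO libraries.

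**Figure D1:**
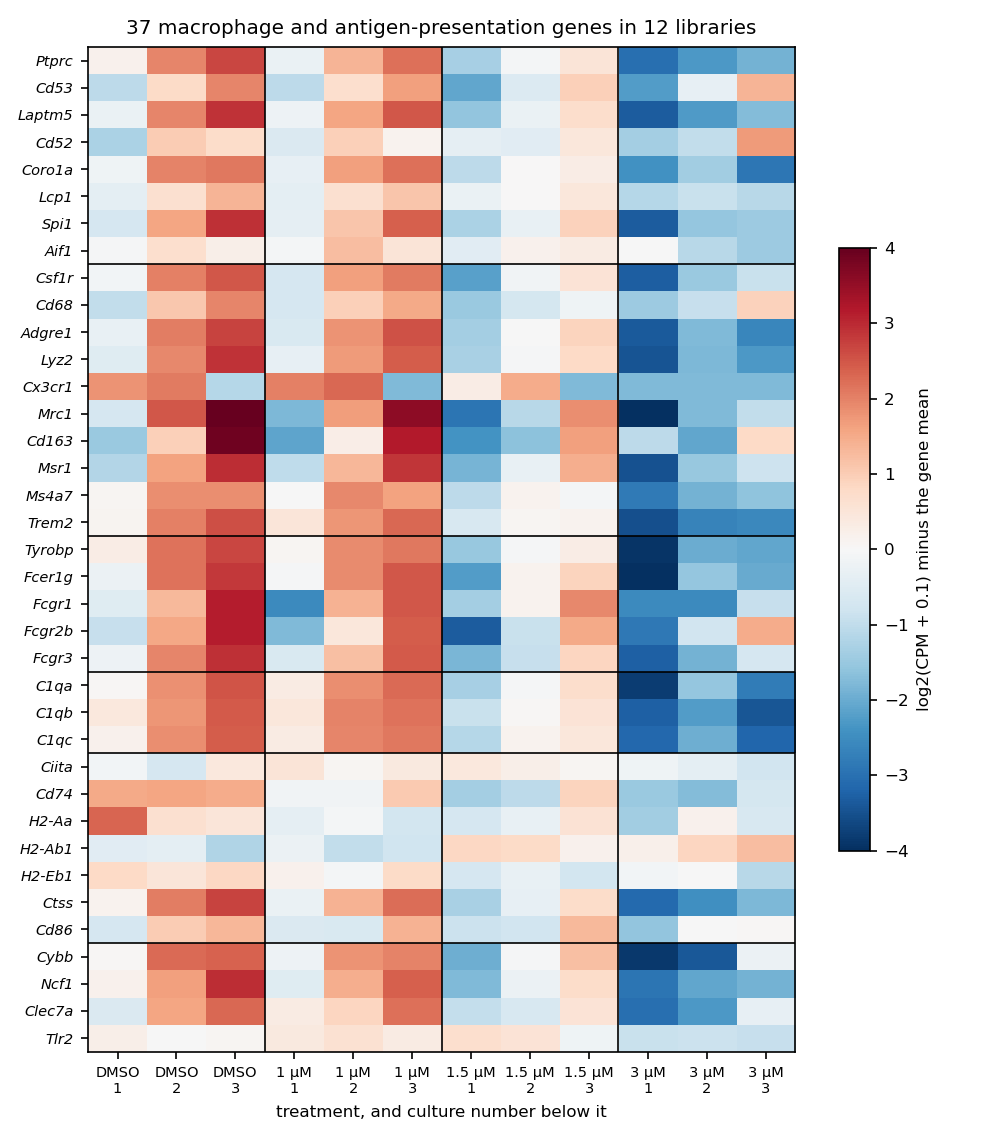
Level of each of the 37 genes (rows, in blocks by role) in each of the 12 libraries (columns, by treatment and culture), as log2(CPM + 0.1) minus the gene's mean over libraries, with red above and blue below that mean. In most rows the DMSO and 1 µM columns of cultures 2 and 3 are red and the 3 µM columns blue, while H2-Ab1 runs the other way and Cd53, Cd68 and Fcgr2b stay red at 3 µM in culture 3.

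**Figure D2:**
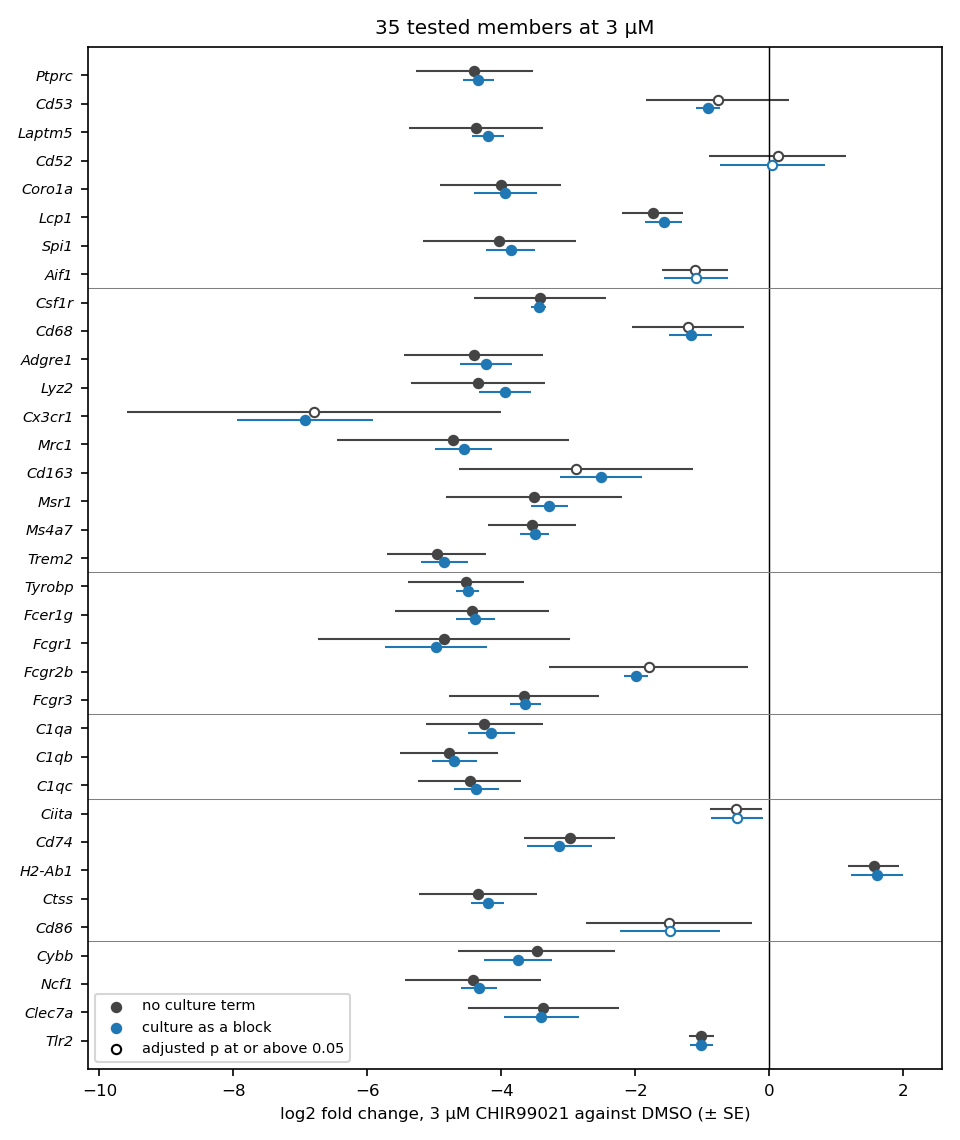
Log2 fold change at 3 µM against DMSO (x axis, bars are ± SE) for the 35 tested members by role, without a culture term (grey) and with the culture as a block (blue), open where the adjusted p was 0.05 or more. The values lie close together in both models while the bars are shorter with the block in most genes, and H2-Ab1 is the member above 0 that passed.

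The counts called at 3 µM in each role below are read against 27.7% of all tested genes lower and 29.9% higher. Among 8 genes shared by leukocytes, 5 fell at 3 µM and 3 did not pass, with a median log2 fold change of −2.88. Ptprc (CD45, ENSMUSG00000026395, chromosome 1, 138063407 to 138175706), the phosphatase carried by nearly all leukocytes, stood at 4.31, 15.3 and 24.9 CPM in DMSO, 3.15, 10 and 17.9 at 1 µM, 1.46, 3.61 and 5.56 at 1.5 µM and 0.392, 0.706 and 0.966 at 3 µM. All 3 libraries at 3 µM lay below all 3 of DMSO, with a log2 fold change of −4.40 ± 0.876 (SE, adjusted p = 0.00178). Laptm5, a lysosomal membrane protein of blood cells, was at 9.78, 46.4 and 89.5 CPM in DMSO, 10.4, 35.9 and 67.5 at 1 µM, 3.88, 9.95 and 19.3 at 1.5 µM and 1.1, 2.37 and 3.52 at 3 µM. The lowest DMSO library was above the highest at 3 µM, and the log2 fold change was −4.37 ± 1 (SE, adjusted p = 0.00408). Coro1a, an actin regulator of leukocytes, had 1.47, 6.91 and 7.65 CPM in DMSO, 1.32, 5.46 and 8.07 at 1 µM, 0.764, 1.69 and 2.09 at 1.5 µM and 0.235, 0.578 and 0.138 at 3 µM. At 3 µM it kept 16, 8.36 and 1.8% of each culture's DMSO level (−4.01 ± 0.9 SE, adjusted p = 0.00353 on the log2 scale). Coro1a overlaps Bola2 on the opposite strand, and Lcp1, Cd52, Csf1r, Fcgr2b, Ciita, H2-Eb1, Ncf1 and Cx3cr1 also have an annotated gene on the other strand. The strand setting of the counting is not given in the sources used here, so reads from such partners cannot be told apart.

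Spi1 (ENSMUSG00000002111, chromosome 2, 91082390 to 91115756), which encodes PU.1, was low throughout, with 1.02, 5.18 and 13.2 CPM in DMSO, 1.27, 3.75 and 9.15 at 1 µM, 0.637, 1.34 and 3.24 at 1.5 µM and 0.0784, 0.513 and 0.552 at 3 µM. Its highest library at 3 µM was below the lowest of DMSO, and the log2 fold change was −4.03 ± 1.14 (SE, adjusted p = 0.0121). Lcp1, the actin bundler L-plastin, had the most counts of the leukocyte genes, with 46.5, 94.8 and 155.9 CPM in DMSO, 46.4, 96.1 and 131.1 at 1 µM, 50.3, 61.7 and 84.4 at 1.5 µM and 27.4, 33 and 28.4 at 3 µM. The 1.5 µM libraries overlapped those of DMSO, the 3 µM libraries did not, and the log2 fold change at 3 µM was −1.74 ± 0.453 (SE, adjusted p = 0.00798). Cd53, a leukocyte tetraspanin, had 3.73, 13.3 and 30.4 CPM in DMSO, 3.76, 12.6 and 24.8 at 1 µM, 1.78, 5.34 and 15.2 at 1.5 µM and 1.57, 6.16 and 20.1 at 3 µM. The ranges overlapped and the change did not pass (−0.77 ± 1.07 SE, adjusted p = 0.558), whereas the blocked model gave −0.91 ± 0.175 (SE, adjusted p = 0.00141). Aif1 (IBA1, a calcium-binding protein of macrophages) stayed between 0.483 and 3.7 CPM in all 12 libraries (−1.11 ± 0.496 SE, adjusted p = 0.0773 at 3 µM). Cd52, a small surface glycoprotein of lymphocytes and myeloid cells, stayed between 0.0784 and 1.38 CPM (0.13 ± 1.02 SE, adjusted p = 0.918), and its highest library was culture 3 at 3 µM, with 20 counts.

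Of 10 receptors and lineage genes of macrophages, 7 fell at 3 µM, and the median log2 fold change of the 10 was −3.94. Csf1r, the receptor for CSF1 and IL34 on which macrophages depend, was at 9.33, 40.7 and 56.6 CPM in DMSO, 6.3, 31.3 and 42.8 at 1 µM, 2.16, 9.07 and 14.8 at 1.5 µM and 0.941, 3.53 and 5.38 at 3 µM. The cultures kept like shares, 10.1, 8.67 and 9.51% of their own DMSO level at 3 µM, and the log2 fold change was −3.42 ± 0.991 (SE, adjusted p = 0.0137). Lyz2 (ENSMUSG00000069516, chromosome 10, 117277334 to 117282274), the lysozyme of macrophages and neutrophils, had the most counts of all 37 genes, with 220.0, 1171 and 2266 CPM in DMSO, 245.0, 1012 and 1661 at 1 µM, 124.6, 295.8 and 535.9 at 1.5 µM and 27.9, 89.1 and 62.9 at 3 µM. In DMSO culture 3 was far above culture 1, yet all 3 libraries at 3 µM lay below the lowest of DMSO (−4.34 ± 1 SE, adjusted p = 0.00413). Reads shared with its near copy Lyz1 could not be separated here. Adgre1 (ENSMUSG00000004730, chromosome 17, 57358686 to 57483529) was at 10.1, 51.1 and 81.5 CPM in DMSO, 8.12, 43.1 and 72.8 at 1 µM, 4.71, 12.3 and 22.7 at 1.5 µM and 1.1, 3.59 and 1.93 at 3 µM. The largest loss was in culture 3, which kept 2.37% of its DMSO level, and the log2 fold change was −4.41 ± 1.04 (SE, adjusted p = 0.00459).

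Trem2 (ENSMUSG00000023992, chromosome 17, 48346401 to 48354147), a lipid-sensing receptor that signals through TYROBP, was at 5.07, 19 and 28.5 CPM in DMSO, 6.55, 15.9 and 23 at 1 µM, 2.93, 4.88 and 5.1 at 1.5 µM and 0.314, 0.642 and 0.69 at 3 µM. The 3 cultures drew together at 1.5 µM and held 4, 10 and 10 counts at 3 µM. It was the member with the largest called decrease in the model without a block, at −4.96 ± 0.74 (SE, adjusted p = 0.00032), and also passed at 1.5 µM (−2.02 ± 0.613 SE, adjusted p = 0.0341) and between 1.5 and 3 µM (−2.94 ± 0.712 SE, adjusted p = 0.0127). Ms4a7, a tetraspan membrane protein of macrophages, had 8.4, 28.9 and 29.1 CPM in DMSO, 7.92, 30.4 and 24.2 at 1 µM, 3.76, 8.8 and 7.47 at 1.5 µM and 1.02, 2.05 and 2.55 at 3 µM. Its DMSO and 3 µM libraries did not overlap (−3.54 ± 0.663 SE, adjusted p = 0.00126). Msr1, a scavenger receptor, was at 5.87, 40.4 and 103.7 CPM in DMSO, 6.55, 33.8 and 97.1 at 1 µM, 3.56, 10.7 and 36.8 at 1.5 µM and 1.1, 4.56 and 7.38 at 3 µM. Culture 3 at 3 µM was above culture 1 in DMSO, so that the groups overlapped, and the decrease passed (−3.51 ± 1.31 SE, adjusted p = 0.0409).

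Mrc1 (ENSMUSG00000026712, chromosome 2, 14229414 to 14332057), the mannose receptor CD206 of tissue macrophages, differed widely between cultures, with 13.7, 124.1 and 350.8 CPM in DMSO, 6.25, 70.6 and 264.1 at 1 µM, 2.8, 10.1 and 79.1 at 1.5 µM and 0.941, 6.42 and 11 at 3 µM. Every library at 3 µM lay below the lowest of DMSO (−4.72 ± 1.73 SE, adjusted p = 0.0383). Its count ratio to Csf1r in DMSO was 1.47, 3.05 and 6.2, and at 3 µM it was 1, 1.82 and 2.05. Cd163, the haemoglobin scavenger receptor, was also highest in culture 3 at every treatment, with 0.444, 2.84 and 22.1 CPM in DMSO, 0.254, 1.71 and 13.5 at 1 µM, 0.191, 0.384 and 4.64 at 1.5 µM and 0.627, 0.257 and 2.55 at 3 µM. Culture 1 was not lower at 3 µM than in DMSO, on 10 counts in DMSO and 8 at 3 µM, and the change passed with the block (−2.51 ± 0.614 SE, adjusted p = 0.00547) and not without (−2.88 ± 1.75 SE, adjusted p = 0.179).

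Cd68, a lysosomal sialomucin, had 11.9, 50.4 and 91.2 CPM in DMSO, 14.7, 45.6 and 68 at 1 µM, 8.34, 14.5 and 20.8 at 1.5 µM and 8.63, 12.3 and 45.1 at 3 µM. The culture 3 library at 3 µM was above that at 1.5 µM, the groups overlapped, and the change at 3 µM was −1.21 ± 0.83 (SE, adjusted p = 0.231), or −1.17 ± 0.322 (SE, adjusted p = 0.0101) with the block. Cx3cr1, the fractalkine receptor, was nearly absent from culture 3, with 24, 13 and 1 counts in DMSO, 25, 32 and 0 at 1 µM, 5, 22 and 0 at 1.5 µM and 0 in all 3 libraries at 3 µM. Its DMSO mean of 0.813 CPM was at least 11.6-fold higher than the level that a floor of 3 counts over the 3 µM group allows. The adjusted p was 0.0667, and 0.000706 with the block.

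**Figure D3:**
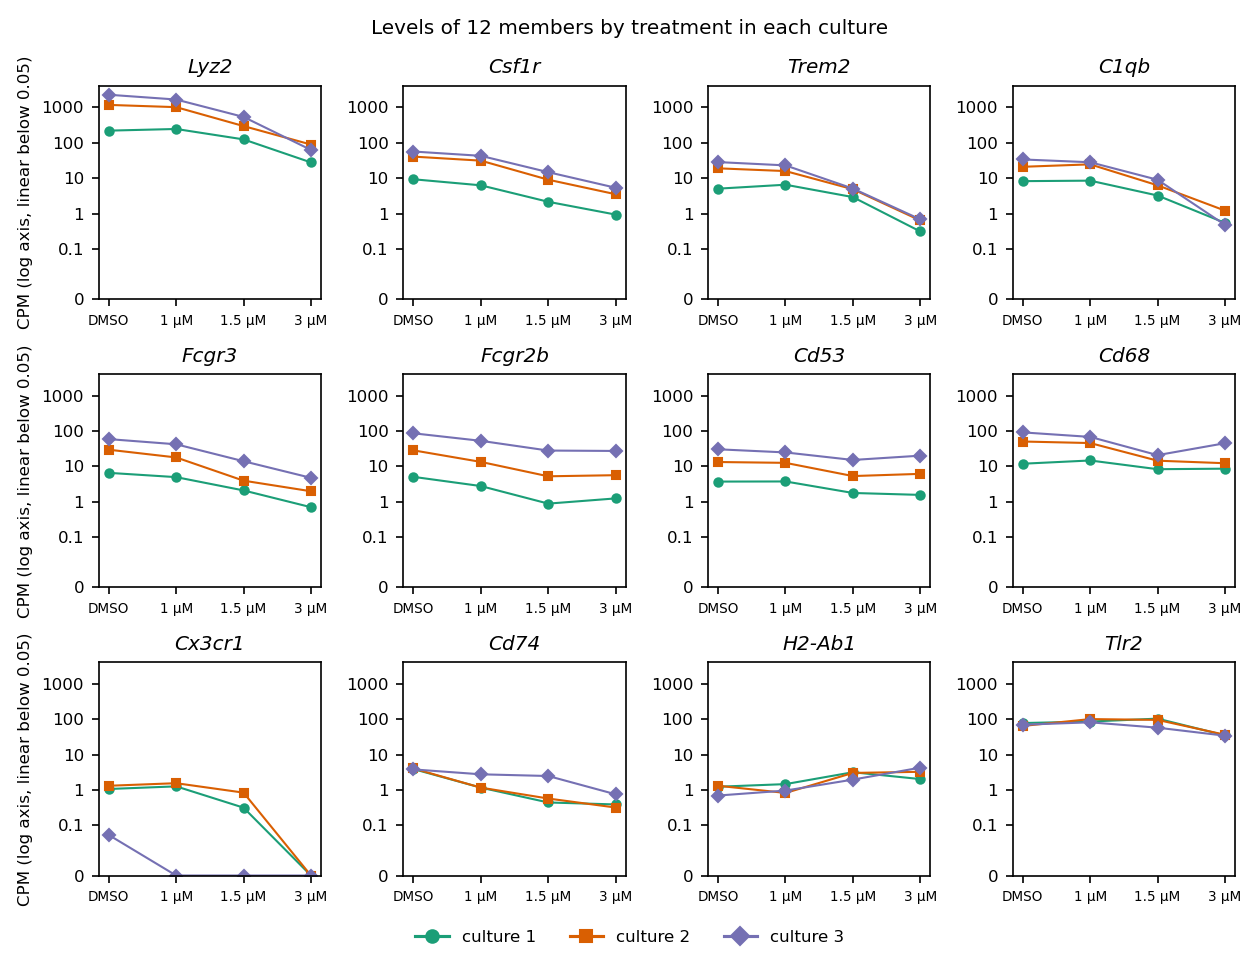
CPM of 12 members (panels) by treatment (x axis, evenly spaced) in each culture (colour and symbol), on a log axis that is linear below 0.05 so that 0 can be shown. Lyz2, Csf1r, Trem2, C1qb and Fcgr3 drop from 1 to 3 µM in all 3 cultures, Fcgr2b and Cd53 level off after 1.5 µM, Cx3cr1 reaches 0, H2-Ab1 rises, and Tlr2 is lowest at 3 µM in all 3 cultures.

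The bases before the transcription start are shown for 4 members whose response to 3 µM differed in size: Trem2 and C1qb, which had the largest decreases among the called members with over 3 counts at 3 µM, and Cd53 and Cd68, which are 2 of the 5 that passed only with the block. The 250 bases upstream of the RefSeq start (GRCm38.p6, 5′ to 3′ on the gene's strand) hold no exon of GENCODE M21. Capitals mark exact matches to GAGGAAG, a sequence that PU.1 binds, on either strand (CTTCCTC on the other). Other forms of the PU.1 site were not searched.
Trem2 (chr17:48346151-48346400, plus strand): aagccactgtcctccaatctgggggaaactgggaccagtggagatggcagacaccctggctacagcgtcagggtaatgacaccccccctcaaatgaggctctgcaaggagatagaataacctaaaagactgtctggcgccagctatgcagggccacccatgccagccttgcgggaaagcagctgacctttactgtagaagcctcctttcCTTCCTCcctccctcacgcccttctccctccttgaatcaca
C1qb (chr4:136886201-136886450, minus strand): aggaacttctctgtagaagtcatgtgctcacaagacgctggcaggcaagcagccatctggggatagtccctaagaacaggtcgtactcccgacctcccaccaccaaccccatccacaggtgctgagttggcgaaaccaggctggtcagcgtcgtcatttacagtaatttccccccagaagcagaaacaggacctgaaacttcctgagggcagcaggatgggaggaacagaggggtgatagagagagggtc
Cd53 (chr3:106790150-106790399, minus strand): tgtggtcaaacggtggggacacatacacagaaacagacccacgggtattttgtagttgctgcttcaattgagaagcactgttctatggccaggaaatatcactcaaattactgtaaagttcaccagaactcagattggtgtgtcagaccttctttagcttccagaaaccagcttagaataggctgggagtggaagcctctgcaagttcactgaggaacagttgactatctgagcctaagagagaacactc
Cd68 (chr11:69666171-69666420, minus strand): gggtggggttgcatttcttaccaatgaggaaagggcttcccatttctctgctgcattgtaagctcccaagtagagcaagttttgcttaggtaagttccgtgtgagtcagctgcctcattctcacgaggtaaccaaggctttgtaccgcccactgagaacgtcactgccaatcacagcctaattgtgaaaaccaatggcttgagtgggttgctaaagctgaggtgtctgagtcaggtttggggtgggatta
Of these 4 windows the exact string is in that of Trem2, which does not mean that the others lack a PU.1 site. Over the 26 members with an entry, the exact string is in 7 of 32 windows (21.9%, from 6 genes), and in 10.6% of all 32851 windows of 250 bases. A match describes the letters and is not a measured site.

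Fc receptors bind the constant part of antibodies, and the activating ones signal through FCER1G, an adaptor with an ITAM motif. TYROBP is a related adaptor used by TREM2 and other myeloid receptors. Of these 5 genes 4 fell at 3 µM, with a median log2 fold change of −4.43. Tyrobp (ENSMUSG00000030579, chromosome 7, 30413788 to 30417577), was at 7.55, 27.8 and 39.5 CPM in DMSO, 6.5, 22.8 and 27 at 1 µM, 2.1, 5.96 and 7.59 at 1.5 µM and 0.314, 1.48 and 1.38 at 3 µM. It kept 4.15, 5.3 and 3.49% of each culture's own DMSO level at 3 µM (−4.53 ± 0.864 SE, adjusted p = 0.0014), and it also passed at 1.5 µM (−2.25 ± 0.752 SE, adjusted p = 0.0492). Without the block, Tyrobp lost its call at 1.5 µM in 9 of the 12 fits without 1 library (adjusted p 0.0527 to 0.148). Trem2 lost its call there in 6 (0.0512 to 0.118) and H2-Ab1 in 4 (0.0597 to 0.102). With the block and all 12 libraries, the adjusted p at 1.5 µM was 2.18e-05, 0.000785 and 0.0193 in that order. Fcer1g, the common γ chain of the activating Fc receptors, stood at 2.89, 15.6 and 24.4 CPM in DMSO, 3.25, 12.7 and 19.3 at 1 µM, 0.637, 3.73 and 6.32 at 1.5 µM and 0.0784, 1.09 and 0.759 at 3 µM. Its 3 µM libraries held 1, 17 and 11 counts, all below DMSO (−4.43 ± 1.15 SE, adjusted p = 0.00783).

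Fcgr3 (ENSMUSG00000059498, chromosome 1, 171051174 to 171064935), an activating receptor, and Fcgr2b (ENSMUSG00000026656, chromosome 1, 170960558 to 170976547), the inhibitory one, lie on the same chromosome and differed in how much was kept. Fcgr3 had 6.58, 29.6 and 58.9 CPM in DMSO, 4.98, 17.9 and 42.1 at 1 µM, 2.1, 3.96 and 14 at 1.5 µM and 0.706, 1.99 and 4.76 at 3 µM. The 3 µM libraries were below all of DMSO (−3.66 ± 1.12 SE, adjusted p = 0.0177). Fcgr2b had 5.07, 28.4 and 86 CPM in DMSO, 2.79, 13.4 and 52.7 at 1 µM, 0.891, 5.26 and 28 at 1.5 µM and 1.25, 5.65 and 27.3 at 3 µM. From 1.5 to 3 µM its log2 fold change was near 0 (0.01 ± 1.45 SE, adjusted p = 0.998), its groups overlapped, and its change at 3 µM was −1.80 ± 1.48 (SE, adjusted p = 0.316) without the block and −1.99 ± 0.175 (SE, adjusted p = 1.3e-05) with it. Fcgr1, the high-affinity receptor, had 7, 13 and 93 counts in DMSO and 0, 0 and 3 at 3 µM, that is 0.311, 1.32 and 5.01 CPM in DMSO, 0, 1.41 and 3.12 at 1 µM, 0.127, 0.538 and 2.09 at 1.5 µM and 0, 0 and 0.207 at 3 µM. The ratio of DMSO to 3 µM was 31.7 (95% interval 10.6 to 155.9, counting error only) and the log2 fold change was −4.86 ± 1.88 (SE, adjusted p = 0.0471). The genes of this family are alike in sequence, and how reads common to them were assigned is not given in the sources used here.

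C1q, the first component of the classical complement pathway, is assembled from the products of 3 neighbouring genes on chromosome 4 and is made mainly by macrophages. All 3 were lower at 3 µM than in DMSO and than at 1.5 µM, and the median log2 fold change against DMSO was −4.47. C1qa (ENSMUSG00000036887, chromosome 4, 136895917 to 136898803) was at 12.8, 43.5 and 70.3 CPM in DMSO, 15.3, 44.4 and 59.5 at 1 µM, 4.84, 11.8 and 20.2 at 1.5 µM and 0.784, 4.11 and 1.66 at 3 µM. C1qb (ENSMUSG00000036905, chromosome 4, 136880129 to 136886187) was at 8.26, 21 and 33.8 CPM in DMSO, 8.53, 24.6 and 28.2 at 1 µM, 3.25, 6.3 and 9.04 at 1.5 µM and 0.549, 1.22 and 0.483 at 3 µM. C1qc (ENSMUSG00000036896, chromosome 4, 136889804 to 136893065) was at 8.71, 28 and 41.4 CPM in DMSO, 9.6, 29.8 and 33.6 at 1 µM, 3.44, 8.45 and 10.5 at 1.5 µM and 0.784, 1.93 and 0.759 at 3 µM. In each gene the 1 µM libraries were close to their own DMSO, all 3 libraries at 3 µM lay below the lowest of DMSO, and the lowest share was in culture 3, with 2.36, 1.43 and 1.84% kept. The log2 fold changes at 3 µM were −4.25 ± 0.879 (SE, adjusted p = 0.00227) for C1qa, −4.78 ± 0.729 (SE, adjusted p = 0.000367) for C1qb and −4.47 ± 0.77 (SE, adjusted p = 0.000775) for C1qc. From 1.5 to 3 µM they were −2.47 ± 0.836 (SE, adjusted p = 0.0488), −3.02 ± 0.7 (SE, adjusted p = 0.0106) and −2.67 ± 0.736 (SE, adjusted p = 0.0221) in the same order. Without the block, C1qa lost the call of this step in 7 of the 12 fits without 1 library (adjusted p 0.0557 to 0.147). Its call was also lost with no filter (0.103) and with the compared groups alone (0.0601). C1qc lost the call in 4 of the 12 (0.057 to 0.0751). With the block, the adjusted p of this step was 0.000816 for C1qa and 0.000464 for C1qc. The count ratio of C1qb to C1qa was 0.646, 0.484 and 0.48 in DMSO and 0.7, 0.297 and 0.292 at 3 µM.

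The class II genes had few counts in every treatment and did not change in 1 direction. Of 7 genes of presentation and costimulation 5 were tested, of which 2 fell, 1 rose and 2 did not pass at 3 µM, with a median log2 fold change of −1.49. Of all tested genes 27.7% were lower and 29.9% higher, so these counts of 5 genes are not read as a trait of the class II genes. Cd74, the invariant chain, was alike in the 3 cultures in DMSO, with 3.91, 4.06 and 3.82 CPM in DMSO, 1.17, 1.17 and 2.78 at 1 µM, 0.446, 0.576 and 2.49 at 1.5 µM and 0.392, 0.321 and 0.759 at 3 µM. On 40 to 88 counts per library in DMSO and 5 to 11 at 3 µM, the groups did not overlap and the log2 fold change was −2.98 ± 0.684 (SE, adjusted p = 0.00391). H2-Ab1 (ENSMUSG00000073421, chromosome 17, 34263209 to 34269418), the β chain of the I-A molecule, went the other way, with 1.24, 1.32 and 0.7 CPM in DMSO, 1.47, 0.828 and 0.966 at 1 µM, 3.18, 3.04 and 1.97 at 1.5 µM and 2.04, 3.27 and 4.28 at 3 µM. It held 13 to 28 counts in DMSO and 26 to 62 at 3 µM, all 3 libraries at 3 µM were above all 3 of DMSO, and the change was 1.33 ± 0.385 (SE, adjusted p = 0.0275) at 1.5 µM and 1.56 ± 0.387 (SE, adjusted p = 0.00601) at 3 µM. Without the block, H2-Ab1 lost its call at 3 µM without culture 2 (1.69, adjusted p = 0.0713) and without culture 3 (1.05, adjusted p = 0.056). With the block and all 12 libraries H2-Ab1 passed at 3 µM (adjusted p = 0.00525). Its partner H2-Aa, the α chain, had 27, 3 and 5 counts in DMSO and 0, 3 and 1 at 3 µM. H2-Eb1 had 12, 4 and 10 counts in DMSO and 3, 4 and 1 at 3 µM. Both were too low to test.

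Ctss (ENSMUSG00000038642, chromosome 3, 95526786 to 95556403), cathepsin S, had the most counts of the presentation genes, with 33.6, 127.3 and 201.1 CPM in DMSO, 25.3, 81.1 and 144.5 at 1 µM, 12.3, 24.1 and 50.4 at 1.5 µM and 3.45, 5.52 and 8.7 at 3 µM. It kept 10.3, 4.33 and 4.32% of each culture's DMSO level at 3 µM (−4.35 ± 0.877 SE, adjusted p = 0.00194). Ciita, the class II transactivator, stayed between 0.276 and 0.812 CPM over all 12 libraries, with 3 to 17 counts each (−0.49 ± 0.389 SE, adjusted p = 0.299 at 3 µM). Cd86, a costimulatory ligand, had at most 12 counts in any library (−1.49 ± 1.24 SE, adjusted p = 0.325). Neither passed at any dose, also with the block.

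The oxidative burst genes and receptors for microbial patterns all fell at 3 µM, 4 of 4, with a median log2 fold change of −3.42. Cybb, the catalytic subunit of the phagocyte NADPH oxidase, was at 7.2, 34.3 and 36.6 CPM in DMSO, 6.09, 24.8 and 28.1 at 1 µM, 1.72, 6.84 and 16.1 at 1.5 µM and 0.392, 0.578 and 6 at 3 µM. Culture 3 kept 16.4% at 3 µM and cultures 1 and 2 kept 5.45 and 1.68% (−3.47 ± 1.17 SE, adjusted p = 0.0267). Ncf1, the p47 subunit of the oxidase, had 3.47, 9.85 and 24.1 CPM in DMSO, 2.18, 8.62 and 16.5 at 1 µM, 0.828, 2.57 and 5.21 at 1.5 µM and 0.314, 0.642 and 0.759 at 3 µM. The groups did not overlap (−4.42 ± 1.02 SE, adjusted p = 0.00425). Clec7a (dectin-1), which GENCODE M21 lists as a polymorphic pseudogene, had 0.444, 2.34 and 3.93 CPM in DMSO, 0.914, 1.36 and 3.64 at 1 µM, 0.318, 0.423 and 1.1 at 1.5 µM and 0, 0.0642 and 0.552 at 3 µM. Culture 3 at 3 µM was above culture 1 in DMSO, and the decrease passed (−3.37 ± 1.13 SE, adjusted p = 0.0262).

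Tlr2 (ENSMUSG00000027995, chromosome 3, 83836273 to 83841767), a receptor for bacterial lipoproteins, had like levels in the 3 cultures, with 77.7, 64.4 and 69.7 CPM in DMSO, 85.7, 100.5 and 81.5 at 1 µM, 103.5, 95.4 and 57.5 at 1.5 µM and 35, 36.3 and 34.2 at 3 µM. In DMSO culture 1 was the highest, and the 1.5 µM level was above DMSO in cultures 1 and 2. Without the block it passed at 3 µM and at no lower dose, with a log2 fold change of −1.01 ± 0.189 (SE, adjusted p = 0.00125) against DMSO and −1.28 ± 0.19 (SE, adjusted p = 0.00124) against 1.5 µM. All 3 libraries at 3 µM lay between 34.2 and 36.3 CPM.

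Levels between genes were compared per length, as DMSO mean CPM per kilobase of exon. Lyz2 was highest at 926.2, followed by Ctss at 88.9, Cd68 at 40.7, C1qa at 40.6 and Tyrobp at 37.4. These are means over cultures that differ widely, so the order of near neighbours is no ranking. At the low end were Ciita at 0.0541, Cd86 at 0.113, H2-Aa at 0.156 and Cx3cr1 at 0.181.

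Of 8 ratios between members within a library, chosen after values had been seen, 4 had no overlap between DMSO and 3 µM. The count ratio of Fcgr2b to Fcgr3 was 0.77, 0.962 and 1.46 in DMSO and 1.78, 2.84 and 5.74 at 3 µM. That of Cd53 to Ptprc was 0.866, 0.868 and 1.22 in DMSO and 4, 8.73 and 20.8 at 3 µM. For Cd68 to Csf1r it was 1.28, 1.24 and 1.61 in DMSO and 9.17, 3.49 and 8.37 at 3 µM. In these 3 pairs all libraries at 3 µM were above all of DMSO. Cx3cr1 to Csf1r went the other way, from 0.114, 0.0324 and 0.000951 in DMSO to 0 in all 3 libraries at 3 µM. This ratio rests on few counts: 24, 13 and 1 of Cx3cr1 in DMSO, and 12, 55 and 78 of Csf1r at 3 µM. A ratio of 0 at 3 µM therefore cannot be told from a small one. For each of the 4 the exact permutation test over 3 against 3 libraries gave its smallest possible two-sided p of 0.1. The ranges of the other 4 overlapped: Lyz2 to Csf1r, for example, was 23.6, 28.8 and 40 in DMSO and 29.7, 25.3 and 11.7 at 3 µM.

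**Figure D4:**
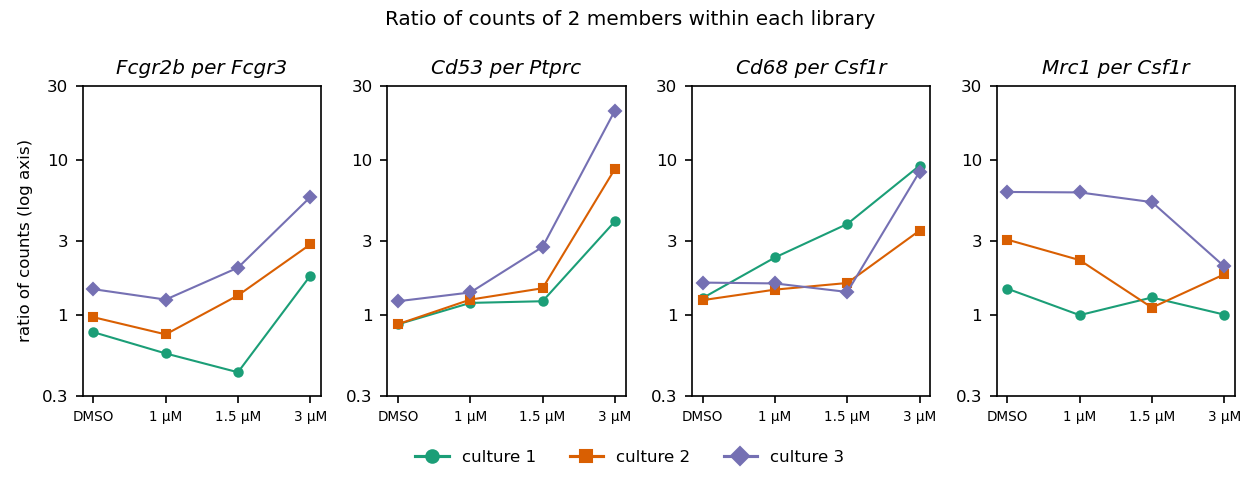
Ratio of the counts of 2 members within each library (y axis, log scale) by treatment (x axis) in each culture (colour and symbol). Fcgr2b per Fcgr3, Cd53 per Ptprc and Cd68 per Csf1r are highest at 3 µM in all 3 cultures, and Mrc1 per Csf1r differs between cultures in DMSO from 1.47 to 6.2 and lies between 1 and 2.05 at 3 µM.

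The macrophage genes differed between cultures as well as with dose. In DMSO, 30 of the 37 genes were highest in culture 3 and 30 were lowest in culture 1, and the summed level was 536.3, 2155 and 4055 CPM. The shares of all genes with these orders were not counted. With group in the model, 29 of the 35 tested members differed between cultures, against 28.8% of all tested genes. Csf1r and Fcgr2b had the smallest adjusted p of the members (both 9.19e-06). The 6 that did not pass were Cd52 (0.116), Aif1 (0.538), Ciita (0.696), Cd74 (0.0762), H2-Ab1 (0.856) and Tlr2 (0.267), all as adjusted p. The summed level at 3 µM was 121.7, 231.8 and 288.2 CPM, which is 22.7, 10.8 and 7.11% of each culture's own DMSO. At 1.5 µM it was 354.3, 632.7 and 1094 CPM (66.1, 29.4 and 27%) and at 1 µM 545.8, 1840 and 3073 CPM (101.8, 85.4 and 75.8%). A few genes carry these sums. Lyz2 alone held 220.0, 1171 and 2266 CPM in DMSO. In culture 1 at 3 µM, Tlr2 held 35 and Lcp1 27.4 of the 121.7 CPM. Tlr2 kept 45, 56.4 and 49% of its own DMSO level at 3 µM. The summed shares therefore do not describe each member. A test of whether the dose slope differed between cultures, chosen after the data had been seen, called 0 members and 0% of all genes in edgeR. At an unadjusted p below 0.05 it marked 3 members (Cd52, Lcp1 and Cd163) and 1230 genes.

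Genes of other cell types moved alongside. The summed level of 8 fibroblast genes was 1631, 7385 and 20536 CPM in DMSO and 177.8, 977.1 and 4580 at 3 µM, that is 10.9, 13.2 and 22.3% of each culture's own DMSO. It had the same order of cultures in DMSO as the macrophage genes. At 3 µM 0 of the 8 passed without the block and 7 with it, all lower (34.8% of all tested genes). The 2 with most counts, Col3a1 and Col1a2, fibrillar collagen chains, had 506.6, 2982 and 9291 CPM in DMSO and 43.4, 203.2 and 986.1 at 3 µM, and 479.2, 1965 and 4831 CPM in DMSO and 51, 286.1 and 1136 at 3 µM (adjusted p = 0.107 and 0.163, with the block 7.59e-06 and 1.11e-05). Of 8 endothelial genes 7 fell (27.7% of all tested genes), and their sum was 295.6, 612.5 and 503.8 CPM in DMSO and 34.3, 73.5 and 103.8 at 3 µM (11.6, 12 and 20.6%). Among them were Tek (−3.73 on the log2 scale), Kdr (−3.23), Cldn5 (−2.97) and Tie1 (−2.87), receptors and a junction protein of vessels. Of the epithelial genes Krt14 (3.84), Krt5 (3.42) and Trp63 (2.68), all basal, rose, and the luminal keratins Krt8 (−0.75) and Krt18 (−0.48) fell. The part of these shifts in the macrophage result was not tested.

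**Figure D5:**
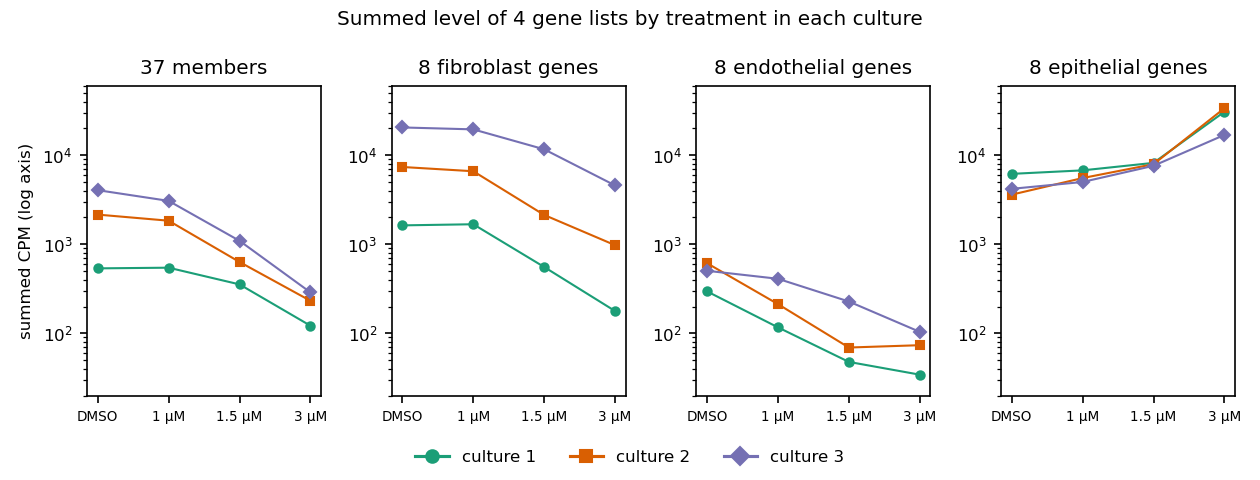
Summed CPM (y axis, log scale) of the 37 members and of 8 fibroblast, 8 endothelial and 8 epithelial genes by treatment (x axis) in each culture (colour and symbol). The first 3 sums are lower at 3 µM than in DMSO in all 3 cultures, and the epithelial sum is higher, from 3611 to 6181 CPM in DMSO to 16921 to 33755 CPM at 3 µM.

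Many markers of other leukocytes were low, though not all were below the members. In DMSO Trac was above Ptprc (4.31, 15.3 and 24.9 CPM) in cultures 1 and 2 and below it in culture 3. Calls at 3 µM in these lists are read against 27.7% of all tested genes lower and 29.9% higher. Of 8 dendritic or Langerhans cell genes 5 had at most 7 counts in any library, among them Cd207 (langerin) and Flt3, and the sum was 13.4 to 29.8 CPM in DMSO and 2.67 to 7.73 at 3 µM. The 3 that were tested fell: Itgax, the integrin CD11c (−4.27 ± 0.815 SE, adjusted p = 0.00138), Clec9a (−3.0 ± 0.606 SE, adjusted p = 0.00188) and Zbtb46 (−1.72 ± 0.383 SE, adjusted p = 0.00332). Of 8 T or NK cell genes 5 had at most 7 counts, Cd3e, Cd3g and Cd8a among them, and the sum was 11.3 to 28.3 CPM in DMSO and 1.59 to 4.56 at 3 µM, with Trac at 12.5, 23.4 and 3.77 CPM in DMSO and 0.627, 0.642 and 0.207 at 3 µM. Trac (−4.72 ± 1.22 SE, adjusted p = 0.00769) and Cd4 (−4.33 ± 0.861 SE, adjusted p = 0.00175), which some myeloid cells also carry, fell. Of 7 B or plasma cell genes 5 had at most 7 counts, and Ighm, the μ heavy chain, fell (−4.77 ± 1.33 SE, adjusted p = 0.0113) within a sum of 3.29 to 11.1 CPM in DMSO and 0 to 1.09 at 3 µM. Of 8 neutrophil or mast cell genes 3 had at most 7 counts (Ly6g, Mpo and Elane) and 5 were tested. Their sum of 321.7 to 876.1 CPM in DMSO and 219.3 to 408.8 at 3 µM came almost wholly from Kit, which luminal epithelium also carries. Csf3r fell (−3.76 ± 0.595 SE, adjusted p = 0.000433) and Cxcr2 rose (3.31 ± 0.863 SE, adjusted p = 0.00789). The deposited counts hold only genes with a count in some library, so a listed marker that is absent from them is not counted here. Of 9 listed dendritic or Langerhans cell genes 8 were present.

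Of 25 further genes of macrophages and other myeloid cells that were tested, 17 fell at 3 µM and 0 rose, with a median log2 fold change of −2.80. Of all tested genes 27.7% were lower and 29.9% higher. Mpeg1, the pore-forming perforin-2, had 43.5, 180.9 and 247.6 CPM in DMSO and 2.59, 5.01 and 6.97 at 3 µM (−5.01 ± 0.834 SE, adjusted p = 0.000624). Itgb2, the β2 integrin chain of leukocytes, had 7.38, 35.6 and 58.1 CPM in DMSO and 0.392, 1.6 and 2.42 at 3 µM (−4.49 ± 1.09 SE, adjusted p = 0.0054). Nckap1l, an actin regulator of blood cells, fell as well (−4.20 ± 1.05 SE, adjusted p = 0.00635). Vsig4, a complement receptor of resident macrophages, had 94 counts in DMSO and 3 at 3 µM, a ratio of 26.4 (95% interval 8.75 to 130.1). Of 3 tested growth factors of the lineage 1 rose: Csf3, the granulocyte factor G-CSF, had 0.355, 0.305 and 0.162 CPM in DMSO and 4.63, 8.86 and 13.5 at 3 µM (5.0 ± 0.702 SE, adjusted p = 0.000206). Csf1, the main ligand of the CSF1 receptor, was at 118.7, 198.2 and 198.4 CPM in DMSO and 114.7, 205.9 and 266.9 at 3 µM (0.19 ± 0.361 SE, adjusted p = 0.67), and Il34, the other ligand, did not pass either (−0.08 ± 0.204 SE, adjusted p = 0.759).

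The lists that follow are read against the 27.7% of all tested genes called lower and 29.9% called higher at 3 µM, or 34.8 and 34.1% with the block. Of 9 tested genes that serve class II transactivation and peptide loading, 4 fell and 3 rose at 3 µM. Lgmn, a lysosomal protease, fell (−1.63 ± 0.571 SE, adjusted p = 0.0321), as did the peptide exchange subunits H2-DMa (−1.0 ± 0.305 SE, adjusted p = 0.017) and H2-DMb2 (−0.99 ± 0.278 SE, adjusted p = 0.0117), while the protease Ctsl rose (1.1 ± 0.362 SE, adjusted p = 0.0239). In interferon γ signalling 3 of 7 fell and 1 rose. Ifngr1 (−0.65 ± 0.192 SE, adjusted p = 0.0149) and Irf1 (−0.48 ± 0.141 SE, adjusted p = 0.0137) were among those that fell, Ifngr2 (0.34 ± 0.0897 SE, adjusted p = 0.00873) rose, and 5 were lower with the block. In class I presentation, which every nucleated cell carries, 4 of 14 fell and 0 rose, with a median of −0.25, and 7 were lower with the block. The share of class I genes that fell is close to that of all genes. The 4 were H2-T23 (−0.82), Tapbp (−0.79), Psmb9 (−0.71) and Tap2 (−0.70 on the log2 scale).

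Of 11 other complement genes 5 fell and 0 rose, with a median of −1.08. The component C4b had 80.1, 168.9 and 347.3 CPM in DMSO and 5.25, 5.9 and 11.2 at 3 µM and fell (−4.73 ± 0.946 SE, adjusted p = 0.00185), and C2 fell (−1.62 ± 0.523 SE, adjusted p = 0.0222). The protease Cfi had 77 counts in DMSO and 2 at 3 µM, a ratio of 32.4 (95% interval 8.67 to 272.2). Of 6 tested partners and relatives of the NADPH oxidase 3 fell and 2 rose. The phagocyte subunit Ncf4 (−3.62 ± 0.889 SE, adjusted p = 0.00583) and the non-phagocytic Nox4 (−2.94 ± 0.36 SE, adjusted p = 8.99e-05) were among those that fell. Duox1, an oxidase of epithelia, rose, with 1.16, 1.73 and 1.18 CPM in DMSO and 19, 17.4 and 58.6 at 3 µM (4.57 ± 0.535 SE, adjusted p = 7.05e-05). Of 8 tested Toll-like receptors and adaptors 5 fell and 1 rose, with Tlr7 (−4.22 ± 0.979 SE, adjusted p = 0.00429), Tlr1 (−3.86 ± 1.15 SE, adjusted p = 0.0155) and Tlr4 (−0.94 ± 0.125 SE, adjusted p = 0.000147) lower and Tlr5, the flagellin receptor, higher (1.60 ± 0.268 SE, adjusted p = 0.000625).

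At 3 µM, 20 of the 26 called members passed in every fit that left out 1 of the 12 libraries. The other 6 lost the call without at least 3 different libraries each: Mrc1, Msr1, Fcgr1, Fcgr3, Cybb and Clec7a, with adjusted p up to 0.115, 0.149, 0.19, 0.0617, 0.0847 and 0.0928. Leaving out DMSO replicate 3 or replicate 1 or 2 at 3 µM removed the call of all 6, with adjusted p from 0.0582 to 0.19. At 1.5 µM 3 members passed without the block. Leaving out DMSO replicate 2 or 3, or replicate 1 or 2 at 1.5 µM, left 0. Leaving out replicate 2 at 1 µM left 1, and leaving out DMSO replicate 1 or replicate 1 at 1 µM gave 10 and 6. Leaving out culture 2 altogether left 7 called members at 3 µM: Ms4a7, Trem2, Tyrobp, C1qa, C1qb, C1qc and Tlr2. The other folds stayed about as large (Ptprc −4.40, Laptm5 −4.41, Csf1r −3.37 and Lyz2 −4.78 on the log2 scale), and the blocked model without culture 2 called 29 members.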

How the data were processed

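The deposited table held raw read counts per gene for 12 libraries, made by the authors from polyA RNA with a stranded TruSeq kit per the labels' protocols, and with TopHat2 2.1, Bowtie 1.1.0 and HTSeq on GRCm38/mm10 per the submitters' processing notes. The annotation release is not given in the sources used here. All 25210 table rows, including 4 without a gene name, entered the library totals and the filter on low counts. Coordinates and exon lengths came from GENCODE M21 by gene ID (24902 IDs matched, 95.3% with a start within 1000 bp), and upstream sequences from RefSeq.

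Counts were tested with edgeR 4.0.16 (R 4.3.3): filterByExpr, TMM scaling, robust quasi-likelihood fits of all 12 libraries, two-sided, Benjamini-Hochberg adjusted over 15316 genes, threshold 0.05. Positive log2 fold changes mean higher at the higher dose. The test was checked on simulated counts drawn with no difference between cultures. That check cannot decide between the fits with and without the block. DESeq2 1.42.0, other scaling, no filter, fits of the groups compared alone, left-out libraries or cultures and the culture as a block were the alternatives. The numbers pair the libraries because each names an animal in the series' design text. Deviations from group means correlated by 0.177 to 0.84 (median 0.505) in 18 same-number pairs, against a median of −0.212 in 36 other pairs. The biological coefficient of variation was 0.305 without the block and 0.156 with it. No 2 replicates agreed within sampling noise (lowest chi-square per degree of freedom 13.0). The p-values without the block rest on the spread between cultures of different animals. Those with the block rest on the spread left after the culture means are removed. Count intervals are exact, at 95%, and cover counting error only.

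The members and lists were chosen with earlier results of these data known. Members were given library by library if called in any comparison or if they had the most counts in their role, and Cd53, Cd68, Cd163 and Cx3cr1 were added after their values were seen. In other lists up to 4 called genes with the largest change were named, or the 2 with most counts where none was called. Csf1, Il34 and Krt18 were named to complete short counts. Some genes that this rule picks are not reported here.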

Additional observations from a re-analysis of the deposited data

How the results depend on the processing

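No called value changed sign. Of 3439 values of single genes under alternatives, 3144 kept their side of the threshold, 143 lost the call and 152 gained it. At 3 µM the count of 26 called members stayed within 1.5 times of that value under the alternatives run, except without culture 2 (7), and the dose slope (26) except without culture 2 (15). Without culture 2 the blocked model called 29 and 28, and the folds of the lost calls stayed about as large. At 1 µM, with 0 called, the replicate block gave 2, and within the blocked model, in alternatives chosen after seeing the data, library size only gave 1, single left-out libraries gave 0 to 3, and leaving out culture 1 or culture 2 gave 0 each. At 1.5 µM, with 3 called, DESeq2 gave 15, no filter 1, only the compared groups 1, the block 27, single left-out libraries 0 to 10, without culture 1 12 and without culture 2 0. From 1.5 to 3 µM, with 5 called, DESeq2 gave 16, library size only 12, only the compared groups 10, the block 24, single left-out libraries 3 to 11, and leaving out culture 1, 2 or 3 gave 12, 0 and 3. Within the blocked model, in alternatives also chosen after seeing the data, single left-out libraries gave 25 to 28 at 1.5 µM. From 1.5 to 3 µM they gave 23 to 25, and leaving out culture 2 gave 19 in each comparison. The pairing by culture removed no call of a member. Without TMM the median of all genes moved from −0.03 to −0.23 at 3 µM and from −0.00 to −0.28 between 1.5 and 3 µM, so small changes in the class I and interferon lists are read relative to that shift. With a culture left out, 2 libraries remain per group. The test of slopes by culture called 2 genes with no filter and was not run in DESeq2. Counts of 0 to 4 per library at 3 µM limit Cd86, H2-Aa, H2-Eb1, Cx3cr1 and Fcgr1. Other called members also rest on few counts there, such as Clec7a (0, 1 and 8), Coro1a (3, 9 and 2) and Spi1 (1, 8 and 8). The cause of these differences was not tested.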
